A study of Rattus norvegicus with 17 samples.

Results

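The 38 genes described here build the cornified envelope and the lipid barrier of stratified epithelia, or control their assembly, and their RNA was followed in the meibomian glands (MGs) of rats with and without UVB irradiation of the eyelids and with and without overexpression of the human mineralocorticoid receptor (MR). They were taken from a list of 40 names, to which the 4 listed genes whose symbols begin with Lce were added. Of these 44 candidates, 6 (Flg, Flg2, Hrnr, Asprv1, Cdsn and Ly6g6c) were not analysed here. The other 38 all reached at least 1 TPM (a level of transcripts that is corrected for gene length and for the total of each sample) in at least 3 rats, and so belonged to the 13105 genes tested out of the 17251 listed. Nearest to that limit was Lce1m, which reached 1 TPM in 16 of 17 rats, with a lowest value of 0.58 TPM, and none of the candidates analysed fell short of it. By role, the 38 genes comprised 13 envelope proteins, 3 cross-linking enzymes, 3 proteases with 1 protease inhibitor, 5 secreted or surface proteins of differentiating keratinocytes, 10 enzymes, transporters and cofactors of barrier lipids, and 3 transcription factors.

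The cornified envelope is the shell of cross-linked protein that takes the place of the plasma membrane when a keratinocyte dies at the end of its differentiation. Transglutaminases join its proteins to each other, and ceramides with very long acyl chains are made in the living layers, packed into lamellar granules, secreted and partly bound to the outside of the shell. The MG is the large sebaceous gland of the eyelid that secretes the lipids of the tear film. Its duct is lined by a stratified epithelium that is continuous with the epidermis of the lid margin, and excessive keratinization of the duct is a known feature of meibomian gland dysfunction.

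Bulk RNA from dissected MGs was sequenced in 17 female Sprague-Dawley rats aged 10 to 12 weeks, with 1 deposited column per rat. Control WT (n = 4) and UVB WT (n = 3) were wild-type rats, whereas Control P1.hMR (n = 5) and UVB P1.hMR (n = 5) carried the human MR under the proximal P1 promoter of NR3C2, which is active in all tissues that express the receptor and not in the MG alone. Both UVB groups had their eyelids irradiated on 5 days, and both control groups were matched for age and sex and were not irradiated. The upper eyelids were shaved before irradiation, and whether those of the controls were shaved is not given in the sources used here, so shaving and UVB cannot be told apart. The study's methods count eyes for the UVB groups, and the study pooled the eyes of a rat into 1 sample wherever both were used.

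As a check of the labels, the human NR3C2 transcript was listed at 0 in the 7 WT rats and at 5.31 to 9.31 TPM in the 10 P1.hMR rats. Markers of the lipid-producing meibocyte were abundant, with a summed level of 40628 to 57652 TPM over 16 genes in the 17 rats, and 15 of the 16 passed the filter on low values. Genes known from other tissues were present too: the suprabasal keratins of epidermis (4 genes) summed to 1769 to 3571 TPM, the keratins of the hair shaft (11 genes) to 193 to 856 TPM and skeletal muscle (13 genes) to 2143 to 4879 TPM. The study also stained the suprabasal keratins KRT1 and KRT10 in the MG, so these keratins do not by themselves show epidermis in the samples. In bulk tissue, fewer cells of a type and less RNA per cell cannot be told apart, and this holds for each difference given below. The deposited values keep no read counts, so the depth behind each value is unknown and the error comes from the spread between rats.

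The 38 genes together made up 0.770 to 1.23% of the listed TPM of a rat. The highest mean levels over the 17 rats were those of the cysteine protease inhibitor Cst6 (2322 TPM), the secreted Krtdap (1934 TPM), the calmodulin-like Calml3 (787 TPM), the secreted Sbsn (608 TPM) and the lipase cofactor Abhd5 (556 TPM). None of these was placed among the envelope proteins in the role groups used here. Among structural proteins, Cnfn, Lor, Ppl, Crct1 and Evpl reached at least 87.3 TPM in every rat, whereas Ivl ranged from 1.57 to 17.9 TPM and Lce1m from 0.58 to 32.6 TPM. The epidermal ceramide enzymes were low: Cers3 ranged from 8.01 to 24.6 TPM, Alox12b from 5.97 to 17 TPM and Smpd3 from 2.14 to 4.54 TPM.

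UVB moved barrier genes in both directions in both genotypes, with 3 of the 4 late cornified envelope (Lce) genes, Ivl and Cst6 lower and Cnfn, transglutaminases 1 and 3 and the surface protein Lypd3 higher. A gene was called when its limma adjusted p was under 0.05 and its log2 fold change reached 0.5 in either direction. Fold changes are on log2(TPM + 1), where those of genes with low levels come out too small. In WT rats, 10 of the 38 genes were called after UVB (26.3%, against 7.91% of all genes tested), of which 4 were higher (3.92% of all genes were called higher) and 6 lower (3.98%). In P1.hMR rats, 16 of 38 were called (42.1%, against 10.8%), with 10 higher (against 5.05%) and 6 lower (against 5.71%). Without the limit on fold change, 7 genes passed the adjusted p threshold upwards (11.2% of all genes) and 14 downwards (10.3%) in WT, and 14 upwards (18.5%) and 14 downwards (20.6%) in P1.hMR. Without adjustment, 24 of the 38 genes had a limma p under 0.05 in WT (35.3% of all genes) and 30 in P1.hMR (47.6%). All UVB rats lay above all controls in 5 genes (14% of all genes) and below them in 12 (12.6%) in WT, and in 12 (13.2%) and 12 (14%) genes in P1.hMR. The median log2 fold change of the 38 genes was -0.15 in WT and -0.02 in P1.hMR, against 0.01 and -0.02 over all genes tested, while their median absolute log2 fold change was 0.40 and 0.48, against 0.14 and 0.16.

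Of the genes called, 9 were called in both genotypes and in the same direction: Cnfn, Tgm1, Tgm3 and Lypd3 were higher, and Ivl, Cst6, Lce1l, Lce1m and Lce6a were lower. They are 9 of the 10 genes called in WT and 9 of the 16 called in P1.hMR, and these 2 comparisons have no rat in common, although they share 1 estimate of the spread. How many of all genes tested were called in both genotypes was not counted. The overlap can therefore not be read as particular to these genes. The other 7 called in P1.hMR were Cers3, Abca12, Alox12b, Acer1, Ugcg, Sdr9c7 and Lce1f, and the other gene called in WT was Sbsn. The remaining 21 genes were called in neither genotype. The 2 fold changes had opposite signs in 5 genes, Ppl, Crct1, Pnpla1, Pof1b and St14, and none of these was called.

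**Figure D1:**
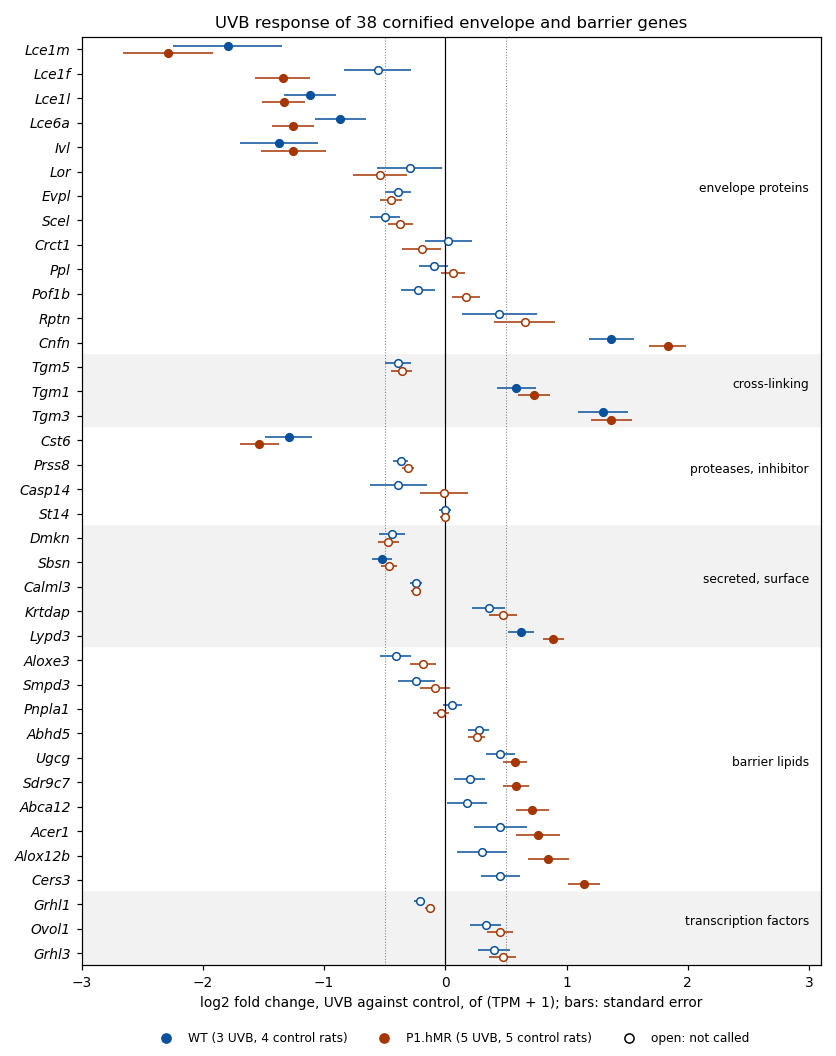
The log2 fold change of (TPM + 1) after UVB is shown on the horizontal axis for each of the 38 genes, grouped by role, with WT in blue (3 UVB and 4 control rats) and P1.hMR in brown (5 UVB and 5 control rats). Bars are standard errors, filled points were called and open points were not, and dotted lines mark -0.5 and 0.5. The Lce genes, Ivl and Cst6 lie on the left in both genotypes, and Cnfn and Tgm3 lie beyond 1 on the right in both.

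Envelope proteins were called in both directions. Cornifelin (Cnfn), a small cysteine-rich protein that is built into the envelope, had the largest rise of all 38 genes in both genotypes. In TPM, it was 152, 126, 168 and 142 in the Control WT rats and 364, 332.5 and 451 in the UVB WT rats. In P1.hMR it was 168, 111, 156, 105 and 149 in the controls and 423, 367, 499.9, 584 and 596 after UVB. Every UVB rat lay above every control rat. The group means were 147 ± 17.9 and 382 ± 61.3 TPM in WT (SD, n = 4 and 3) and 138 ± 28.1 and 494 ± 99.97 TPM in P1.hMR (SD, n = 5 and 5). On the log2 scale Cnfn was higher by 1.37 ± 0.18 (SE) in WT (limma adjusted p = 0.000184) and by 1.84 ± 0.15 in P1.hMR (adjusted p = 6.53e-07), and Cnfn was the only envelope protein that was called higher.

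The 4 Lce genes encode small proteins that are added to the envelope late in its assembly. They are close paralogs, so how reads shared between them were divided bears on the level of each one. Lce1m had the largest fall of all 38 genes in both genotypes. It stood at 13.1, 13.2, 13.7 and 32.6 TPM in Control WT and 6.95, 1.55 and 5.59 TPM in UVB WT rats. In P1.hMR rats the values were 15.3, 20.5, 11.7, 21.7 and 18.2 TPM without UVB and 3.71, 4.86, 4.57, 1.88 and 0.58 TPM with it. The UVB rats lay below all controls of their genotype, and Control WT rat 4 stood far above the other controls. Its log2 fold change was -1.80 ± 0.45 (SE) in WT (limma adjusted p = 0.0104) and -2.29 ± 0.37 in P1.hMR (adjusted p = 0.000196). The WT call rested on UVB WT rat 2: without it the log2 fold change was -1.29 (adjusted p = 0.0652).

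Lce1l and Lce6a were lower as well. Lce1l had means of 63.7 ± 7.81 TPM in Control WT and 28.9 ± 4.17 TPM in UVB WT (SD, n = 4 and 3), and 51.8 ± 7.76 and 20.7 ± 6.71 TPM in the P1.hMR groups (SD, n = 5 and 5). Lce6a went from 25.4 ± 3.69 to 13.8 ± 4.66 TPM in WT and from 29.2 ± 3.65 to 11.9 ± 3.70 TPM in P1.hMR. For both genes, no UVB rat reached the lowest control of its genotype. Their log2 fold changes were -1.11 and -0.86 in WT (limma adjusted p = 0.00216 and 0.00878), and -1.33 and -1.26 in P1.hMR (adjusted p = 3.42e-05 and 5.14e-05).

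Lce1f was called lower in P1.hMR only. Its values were 30.4, 21.2, 21.4 and 29.0 TPM in Control WT and 14.9, 13.2 and 23.9 TPM in UVB WT rats, so that UVB WT rat 3 lay among its controls. In P1.hMR rats, Lce1f was 22.1, 26.2, 23.1, 28.1 and 33.1 TPM without UVB and 12.7, 9.03, 17.3, 7.82 and 5.51 TPM with it, with no overlap. Its fold change was -0.56 ± 0.28 (log2, SE) in WT (limma adjusted p = 0.162) and -1.34 ± 0.23 in P1.hMR (adjusted p = 0.000279).

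Involucrin (Ivl), an early scaffold of the envelope, was also lower in both genotypes. In WT rats it was 12.3, 12.9, 15.96 and 15.1 TPM without UVB and 6.61, 1.57 and 8.90 TPM with it. In P1.hMR rats it was 12.3, 14.1, 12.9, 17.9 and 10.3 TPM without UVB and 6.33, 6.47, 4.83, 4.32 and 3.53 TPM with it. The groups did not overlap in either genotype, and UVB WT rat 2 was the lowest of the 17 rats. Ivl had a log2 fold change of -1.37 ± 0.32 (SE) in WT (limma adjusted p = 0.00736) and -1.25 ± 0.27 in P1.hMR (adjusted p = 0.00161).

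Loricrin (Lor), the main structural protein of the epidermal envelope, was not called. It was 223, 201, 180.1 and 234 TPM in Control WT, 198, 104 and 238 in UVB WT, 208, 128, 148, 224 and 207 in Control P1.hMR and 127, 96.3, 169.5, 87.4 and 155 in UVB P1.hMR rats, and the groups overlapped in both genotypes. Its log2 fold changes of -0.29 and -0.54 missed the threshold (limma adjusted p = 0.469 and 0.0678). Repetin (Rptn), a fused-type S100 protein of the envelope, had log2 fold changes of 0.45 and 0.65 and missed it as well (adjusted p = 0.318 and 0.051). The plakin envoplakin (Evpl) and the LIM protein sciellin (Scel), which both sit under the plasma membrane at the start of assembly, passed the adjusted p threshold downwards in both genotypes without reaching the fold limit. Evpl had log2 fold changes of -0.39 and -0.45 (adjusted p = 0.0169 and 0.000948), and Scel of -0.50 and -0.37 (adjusted p = 0.00868 and 0.00803). Periplakin (Ppl), the partner of envoplakin, had -0.09 and 0.07, Crct1 had 0.02 and -0.19, and the actin-binding Pof1b had -0.22 and 0.17, with adjusted p of at least 0.251 in each case. In all, 5 of 13 envelope proteins were called in WT (1 higher, 4 lower, against 7.91% of all genes called). In P1.hMR 6 of 13 were called (1 higher, 5 lower, against 10.8% of all genes called). Their median log2 fold changes were -0.39 and -0.45.

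**Figure D2:**
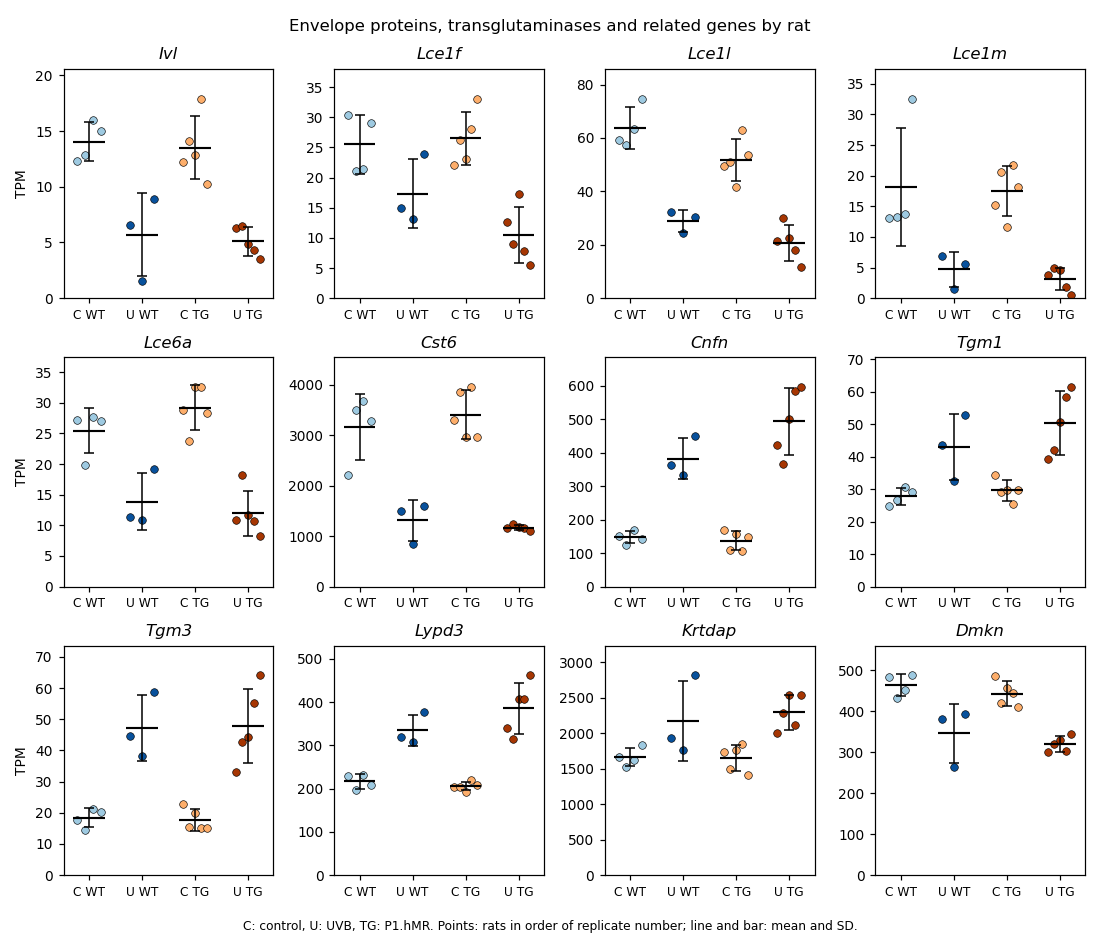
Each panel gives the TPM of 1 gene on a linear axis from 0 for every rat (points, in order of replicate number) in Control WT, UVB WT, Control P1.hMR and UVB P1.hMR (C, control, U, UVB, and TG, P1.hMR), with the mean (line) and SD (bar). The UVB points lie below the controls of their genotype for Ivl, Lce1l, Lce1m, Lce6a and Cst6 in both genotypes, and above them for Cnfn, Tgm1, Tgm3 and Lypd3.

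Of the 3 cross-linking enzymes, 2 were called higher in both genotypes (against 3.92% of all genes in WT and 5.05% in P1.hMR). Transglutaminase 3 (Tgm3), which joins small proline-rich proteins and loricrin before they are added to the shell, was 17.8, 14.5, 21.2 and 20.2 TPM in Control WT and 44.6, 38.1 and 58.9 TPM in UVB WT rats. In P1.hMR it was 22.7, 15.6, 19.9, 15.1 and 15.2 TPM in the controls and 33.1, 42.6, 44.3, 55.3 and 64.1 TPM after UVB. All 8 UVB rats exceeded all 9 controls. The log2 fold change was 1.30 ± 0.20 (SE) in WT (limma adjusted p = 0.000532) and 1.37 ± 0.17 in P1.hMR (adjusted p = 1.68e-05), which are nearly equal values. Transglutaminase 1 (Tgm1), the membrane-anchored enzyme of the envelope, had means of 27.8 ± 2.63 and 43.0 ± 10.3 TPM in WT (SD, n = 4 and 3) and 29.6 ± 3.18 and 50.4 ± 9.82 TPM in P1.hMR (SD, n = 5 and 5). It was higher by 0.59 and 0.73 on the log2 scale (limma adjusted p = 0.0165 and 0.00048), and the WT call was lost without UVB WT rat 3 (0.43, adjusted p = 0.09). Transglutaminase 5 (Tgm5), which also cross-links envelope proteins, had log2 fold changes of the opposite sign, -0.39 and -0.36, which passed the adjusted p threshold (0.0151 and 0.00417) but not the fold limit.

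Cystatin M/E (Cst6), the inhibitor that restrains legumain and cathepsins and through them the processing of transglutaminase 3, was the gene with the highest level and fell in both genotypes. In TPM, it was 2203, 3489.7, 3677 and 3273 in Control WT and 1489, 852 and 1595 in UVB WT rats. In P1.hMR rats it was 3301, 3858, 2955, 3954 and 2973 in the controls and 1152, 1248, 1178, 1164 and 1103 after UVB. The UVB P1.hMR rats lay close together at 1169 ± 52.5 TPM (SD, n = 5), whereas the UVB WT rats spread over 1312 ± 402 TPM (SD, n = 3), and all 8 were below all 9 controls. Cst6 had a log2 fold change of -1.29 ± 0.19 (SE) in WT (limma adjusted p = 0.000385) and -1.53 ± 0.16 in P1.hMR (adjusted p = 4.72e-06). Of the proteases, the channel-activating Prss8 had log2 fold changes of -0.37 and -0.30 (adjusted p = 0.000642 and 0.000175), below the fold limit. St14 (matriptase), a protease of the same cascade, had log2 fold changes near 0 in both genotypes, with 95% intervals of -0.11 to 0.11 and -0.09 to 0.09. Casp14, the caspase of cornification, was not called (-0.39 and -0.01, adjusted p = 0.256 and 0.976).

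Many markers of the hair follicle were called lower after UVB as well. All 8 inner root sheath genes were called lower in both genotypes (against 3.98% of all genes in WT and 5.71% in P1.hMR). Their summed level was 645 to 1033 TPM in Control WT, 678 to 1164 in Control P1.hMR, 274 to 791 in UVB WT and 383 to 643 in UVB P1.hMR. Of 11 hair shaft keratins, 6 were called lower in WT (against 3.98% of all genes) and 4 in P1.hMR (against 5.71%). The summed level of these 11 was 407 to 838, 325 to 856, 193 to 489.9 and 285 to 433 TPM, in the same order. No marker of either list was at 0 in all rats. When the mean levels of the hair keratins and of the skeletal muscle genes were added to the model as covariates, none of the 6 genes called lower in WT remained called, including Cst6 (-0.83, limma adjusted p = 0.0901) and Lce1m (-0.61, adjusted p = 0.597). In the same fit, the number called lower in WT went from 522 to 130 and the number called higher from 514 to 292 over all 13105 genes. There, Tgm3 and Tgm1 also lost their calls in WT (1.12 and 0.61, adjusted p = 0.0528 and 0.168), while Cnfn and Lypd3 kept theirs and Ugcg gained one. In P1.hMR, the same covariates removed Ivl from the calls (-0.84, adjusted p = 0.0783) and left Cst6 (-1.25, adjusted p = 0.000571) and the 4 Lce genes, and Grhl3, Krtdap and Ovol1 were called higher in addition (all genes: 748 to 554 lower and 662 to 718 higher). The hair keratins were themselves lower after UVB and were entered together with muscle, so this fit cannot tell them apart from UVB. What part the hair follicle has in the lower levels was not tested.

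Among the secreted and surface proteins, Lypd3 rose. Lypd3 is a membrane-anchored protein of the suprabasal layers, and stood at 229.9, 197, 230.3 and 208 TPM in Control WT and 320.3, 309 and 376 TPM in UVB WT rats. In P1.hMR the controls were at 204, 203, 193, 219.6 and 209 TPM and the UVB rats at 339, 314, 408, 406 and 461 TPM. The groups were well separated in both genotypes, with log2 fold changes of 0.63 ± 0.11 (SE) in WT (limma adjusted p = 0.00101) and 0.89 ± 0.09 in P1.hMR (adjusted p = 3.47e-06).

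Suprabasin, dermokine and Krtdap are encoded near each other and are secreted by differentiating keratinocytes, yet their fold changes did not share a sign. Suprabasin (Sbsn) was 659, 689, 799 and 732 TPM in Control WT and 532, 436 and 537.5 TPM in UVB WT rats. In P1.hMR it was 661, 695, 721, 732 and 645 TPM without UVB and 461, 489.7, 542, 504 and 505 TPM with it. No UVB rat reached the controls, and the log2 fold change was -0.52 ± 0.08 (SE) in WT (limma adjusted p = 0.000456) and -0.46 ± 0.07 in P1.hMR (adjusted p = 5.96e-05). The value in WT lay just past the fold limit and the value in P1.hMR just short of it, and the interaction of genotype and UVB was 0.06 (adjusted p = 0.933). The WT value fell short of the limit too without UVB WT rat 2 (-0.42) and without Control WT rat 3 (-0.47). Dermokine (Dmkn) had means of 464 ± 26.8 and 346 ± 72.3 TPM in WT (SD, n = 4 and 3) and 443 ± 30.2 and 319.6 ± 18.9 TPM in P1.hMR (SD, n = 5 and 5), and its log2 fold changes of -0.44 and -0.47 passed the adjusted p threshold (0.00821 and 0.0006) without reaching the fold limit.

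Krtdap was higher rather than lower on average. It read 1664, 1524, 1620.0 and 1838 TPM in Control WT and 1926, 1769 and 2813 TPM in UVB WT rats, where rat 2 lay among the controls. In P1.hMR rats it was 1730.4, 1494, 1769, 1849 and 1406 TPM in the controls and 1997, 2284, 2532, 2113 and 2542 TPM after UVB, with every UVB rat above every control. Krtdap had a log2 fold change of 0.36 ± 0.14 (SE) in WT (limma adjusted p = 0.076) and 0.48 ± 0.11 in P1.hMR (adjusted p = 0.00374), below the fold limit in both. Without UVB WT rat 3 the WT value was 0.15, and without rat 2 it was 0.49. Calml3, a calmodulin-like protein of differentiating epithelia, varied little between rats: its values were 845, 890.4, 889 and 832 TPM in Control WT, 702, 731 and 754 in UVB WT, 838, 862, 835, 838 and 818 in Control P1.hMR and 752, 727, 726, 675 and 663 in UVB P1.hMR. All UVB rats lay below all controls by a small margin, with log2 fold changes of -0.24 and -0.24 (limma adjusted p = 0.00258 and 0.000206) that were below the fold limit.

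Barrier lipid genes were called in P1.hMR rats, where 6 of 10 were higher (against 5.05% of all genes) and 0 lower (against 5.71%). In WT rats 0 of 10 were called (against 7.91% of all genes), although 8 of the 10 fold changes were positive there. Over all 13105 genes tested, 6704 were positive in WT. The WT comparison had 3 UVB and 4 control rats and the P1.hMR comparison 5 and 5, and more of all genes were called in P1.hMR (10.8%). Ceramide synthase 3 (Cers3), which makes the ceramides with ultra-long acyl chains, showed the largest rise. Its values were 12.6, 11.0, 11.9 and 10.3 TPM in Control WT and 10.4, 9.98, 11.5, 8.01 and 9.78 TPM in Control P1.hMR rats. After UVB it stood at 12.4, 13.4 and 24.6 TPM in WT and at 22.2, 23.1, 24.2, 23.5 and 22.3 TPM in P1.hMR rats. All 5 UVB P1.hMR rats lay close together at more than 22 TPM, whereas UVB WT rats 1 and 2 were near the controls and UVB WT rat 3 was the highest of the 17 rats. The log2 fold change was 1.14 ± 0.13 (SE) in P1.hMR (limma adjusted p = 1.19e-05) and 0.46 ± 0.16 in WT (adjusted p = 0.0552).

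Abca12, the transporter that loads glucosylceramides into lamellar granules, was 8.83, 6.50, 8.51 and 7.85 TPM in Control WT and 8.35, 6.90 and 12.8 TPM in UVB WT rats. In P1.hMR it was 7.63, 7.40, 7.97, 7.28 and 5.78 TPM in the controls and 10.4, 10.9, 12.4, 14.5 and 14.6 TPM after UVB. The P1.hMR groups were separate and the WT groups overlapped, with log2 fold changes of 0.72 ± 0.14 (SE) in P1.hMR (limma adjusted p = 0.00069) and 0.18 ± 0.17 in WT (adjusted p = 0.46). Without UVB WT rat 3 the WT value turned to -0.046.

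Alox12b and Sdr9c7 act at successive steps on the linoleate of acylceramides, which prepares them for binding to the envelope. Sdr9c7 was 10.1, 7.90, 8.76 and 9.06 TPM in Control WT and 10.3, 8.41 and 12.9 TPM in UVB WT rats. In P1.hMR it was 9.41, 9.26, 9.69, 7.23 and 7.72 TPM and, after UVB, 12.9, 12.3, 12.9, 13.2 and 15.9 TPM. Again the P1.hMR groups were separate and the WT groups overlapped, with log2 fold changes of 0.58 ± 0.10 (SE) in P1.hMR (limma adjusted p = 0.000407) and 0.20 ± 0.13 in WT (adjusted p = 0.272). The WT value was 0.059 without UVB WT rat 3 and 0.34 without rat 2. Alox12b had means of 7.80 ± 1.24 and 10.3 ± 4.34 TPM in WT (SD, n = 4 and 3) and 7.07 ± 1.00 and 13.7 ± 2.79 TPM in P1.hMR (SD, n = 5 and 5), and its fold change was 0.30 and 0.85 on the log2 scale (limma adjusted p = 0.307 and 0.000921). Aloxe3, the lipoxygenase that works on the product of Alox12b, had negative values instead, -0.41 in WT and -0.18 in P1.hMR (adjusted p = 0.0338 and 0.187), both short of the fold limit. The pair therefore had fold changes of opposite sign in both genotypes.

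The enzymes that add glucose to ceramide and that break ceramide down completed the called lipid genes. Ugcg, the glucosylceramide synthase, had means of 7.97 ± 0.92 and 11.4 ± 2.49 TPM in WT and 8.03 ± 0.66 and 12.4 ± 0.91 TPM in P1.hMR (SD, n = 4, 3, 5 and 5). Its log2 fold change passed the adjusted p threshold in both genotypes (0.46 and 0.58, limma adjusted p = 0.0115 and 0.00024), and the fold limit in P1.hMR. Acer1, the alkaline ceramidase of epidermis, had means of 16.5 ± 3.15 and 23.7 ± 9.08 TPM in WT and 17.4 ± 4.29 and 29.8 ± 3.79 TPM in P1.hMR, with log2 fold changes of 0.45 and 0.77 (adjusted p = 0.149 and 0.00321). Both genes were lower in every control P1.hMR rat than in any UVB P1.hMR rat.

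Abhd5, the cofactor of the lipases Pnpla2 and Pnpla1, was by far the highest of the lipid genes, and the sebaceous lipid droplet uses it too. It was 534, 457, 537 and 435 TPM in Control WT and 596, 633 and 551 TPM in UVB WT rats. In P1.hMR it was 530.0, 463, 517, 492 and 598 TPM in the controls and 614, 677, 582, 624 and 605 TPM after UVB. Its log2 fold changes were small and nearly equal, 0.28 ± 0.09 (SE) in WT and 0.26 ± 0.07 in P1.hMR (limma adjusted p = 0.0344 and 0.0104), and below the fold limit. Pnpla1 itself, which builds acylceramide, had 0.06 and -0.04 (95% intervals -0.11 to 0.23 and -0.18 to 0.10), and the sphingomyelinase Smpd3 had -0.24 and -0.08, and neither was called. The median log2 fold change of the 10 lipid genes was 0.24 in WT and 0.58 in P1.hMR.

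**Figure D3:**
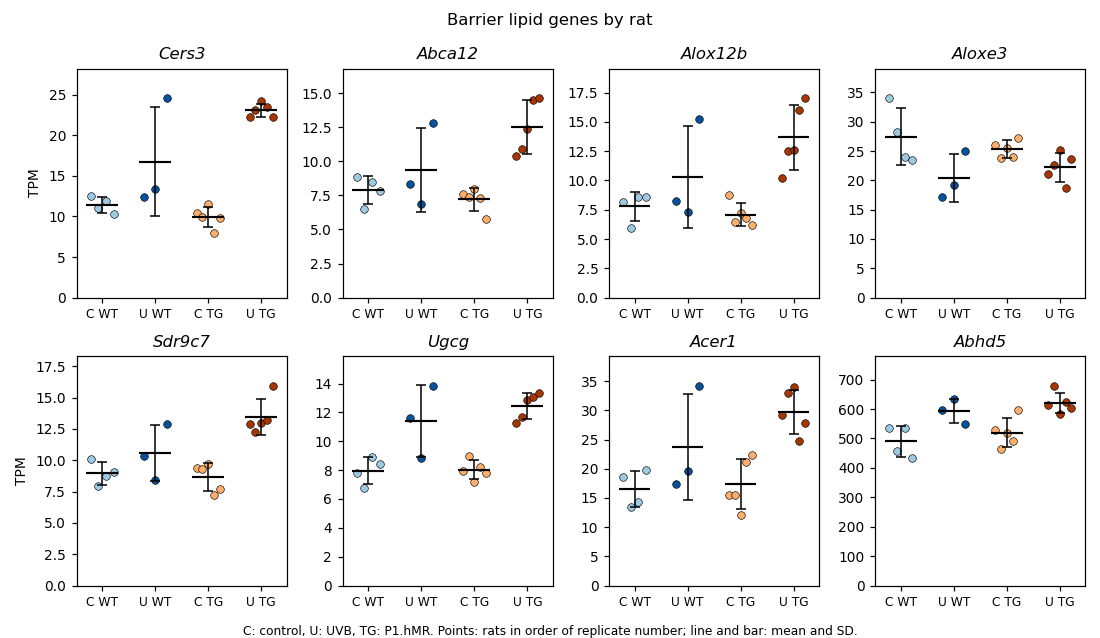
The TPM of 8 barrier lipid genes is plotted on linear axes from 0 for every rat, with the mean (line) and SD (bar) of Control WT, UVB WT, Control P1.hMR and UVB P1.hMR. In 6 panels (Cers3, Abca12, Alox12b, Sdr9c7, Ugcg and Acer1) all UVB P1.hMR points lie above their controls, while the 3 UVB WT points spread widely, with rat 3 uppermost.

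None of the 3 transcription factors of barrier formation was called. Grhl3, a grainyhead-like factor that switches on Tgm1 and other barrier genes, had log2 fold changes of 0.40 and 0.47 (limma adjusted p = 0.0411 and 0.00294), and Ovol1, a zinc-finger factor of keratinocyte differentiation, had 0.33 and 0.45 (adjusted p = 0.0727 and 0.00333). Grhl1, which activates desmosomal cadherins, had negative values of -0.21 and -0.13 (adjusted p = 0.00311 and 0.00949). All 3 passed the adjusted p threshold in P1.hMR and missed the fold limit. Of all genes, 18.5% passed that threshold upwards and 20.6% downwards in P1.hMR. In mean TPM, Grhl3 went from 24.5 ± 2.28 to 34.5 ± 4.55 and Grhl1 from 107 ± 3.54 to 97.3 ± 2.61 in P1.hMR (SD, n = 5 and 5).

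No barrier gene separated the genotypes of unexposed rats. Between P1.hMR and WT without UVB, limma called 0 of the 38 genes (0.00763% of all genes, 0.00763% higher and 0% lower), the smallest adjusted p was 0.998, and 1 gene, Grhl1, had an unadjusted p under 0.05 (4.03% of all genes did). The log2 differences lay between -0.30 for Lce1l and 0.32 for Crct1. In 16 of 38 genes the mean was higher in P1.hMR, as it was in 6402 of all 13105 genes tested. The groups overlapped for all 38, where 0.42% of all genes lay wholly higher and 0.61% wholly lower in P1.hMR.

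Under UVB, 0 of 38 genes were called between the genotypes (0.0229% of all genes, 0.0153% higher and 0.00763% lower, or 0.0153% in each direction with no fold limit), and 7 had an unadjusted limma p under 0.05 (10.3% of all genes did). The 3 with the smallest p were Cers3, higher by 0.50 ± 0.16 (SE) in UVB P1.hMR (limma adjusted p = 0.292), Sdr9c7, higher by 0.34 ± 0.12 (adjusted p = 0.346), and Lce1f, at -0.72 ± 0.26 (adjusted p = 0.357). The genotypes overlapped for all 38 genes, while 1.73% of all genes lay wholly higher and 4.14% wholly lower in P1.hMR. The mean of UVB P1.hMR exceeded that of UVB WT for all 10 lipid genes, by 0.02 to 0.50 on the log2 scale. It did so for 27 of the 38 genes and for 5700 of all 13105 genes tested. The lipid genes were measured in the same rats, so these 10 signs are not independent of each other.

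Whether UVB acted differently in the genotypes was tested as the interaction of genotype and UVB, and 0 of 38 genes were called by limma (0% of all genes were), with 5 genes at an unadjusted p under 0.05 (6.92% of all genes). The smallest unadjusted p belonged to Cers3, whose response was larger in P1.hMR by 0.69 ± 0.21 (log2, SE; limma adjusted p = 0.704). Abca12 (0.53 ± 0.21, adjusted p = 0.704) and Sdr9c7 (0.38 ± 0.16, adjusted p = 0.711) followed. The 6 lipid genes that P1.hMR rats alone had among their calls are thus not shown to differ in their response. Their interaction intervals were wide, for example -0.01 to 1.10 for Alox12b and -0.28 to 0.91 for Acer1.

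For Cers3, the calls between genotypes turned on UVB WT rat 3, while the other 37 genes were not called with or without this rat. Without this rat, Cers3 was called both between the genotypes under UVB (0.80, limma adjusted p = 0.00147) and for the interaction (0.98, adjusted p = 0.00403), and its UVB response in WT was 0.16 (adjusted p = 0.308). Over all genes, leaving out rat 3 took the calls under UVB from 2 higher and 1 lower to 34 higher and 17 lower, and those for the interaction from 0 to 5 higher and 3 lower. Without UVB WT rat 2 in place of rat 3, the UVB response of Cers3 in WT was called (0.58, adjusted p = 0.0391) and the interaction was 0.57 (adjusted p = 0.79). With Abca12, the genotype difference under UVB was 0.64 without rat 3 (adjusted p = 0.0507) and 0.24 without rat 2 (adjusted p = 0.775), and that of Sdr9c7 was 0.48 and 0.20.

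The UVB WT rats differed from each other across most of the 38 genes. Rat 2 was the lowest of its group in 31 of 38 genes and rat 3 the highest in 28 of 38, including all 10 genes called higher in P1.hMR. The median SD of the 38 genes on the log2 scale was 0.30 in UVB WT, against 0.17 in Control WT, 0.16 in Control P1.hMR and 0.19 in UVB P1.hMR, whereas over all genes tested it was 0.11 to 0.12 in the 4 groups. UVB WT rat 3 also had the highest summed level of its group of epidermal suprabasal keratins (3571 TPM, against 2701 and 2338), of inner root sheath genes (791 TPM, against 314 and 274) and of hair keratins (489.9 TPM, against 260.1 and 193), and the lowest of skeletal muscle (2143 TPM, against 3996 and 3385). Rat 2 had the highest summed level of meibocyte genes (49623 TPM, against 43518 in rat 1 and 42727 in rat 3). The part of these tissues in the spread of the barrier genes was not tested. Leaving out rat 2 raised the number of genes called higher in WT from 4 to 8, adding Cers3, Ugcg, Grhl3 and Rptn (all genes: 514 to 598), and leaving out rat 3 raised the number called lower from 6 to 11, adding Aloxe3, Casp14, Dmkn, Scel and Tgm5 (all genes: 522 to 517).

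**Figure D4:**
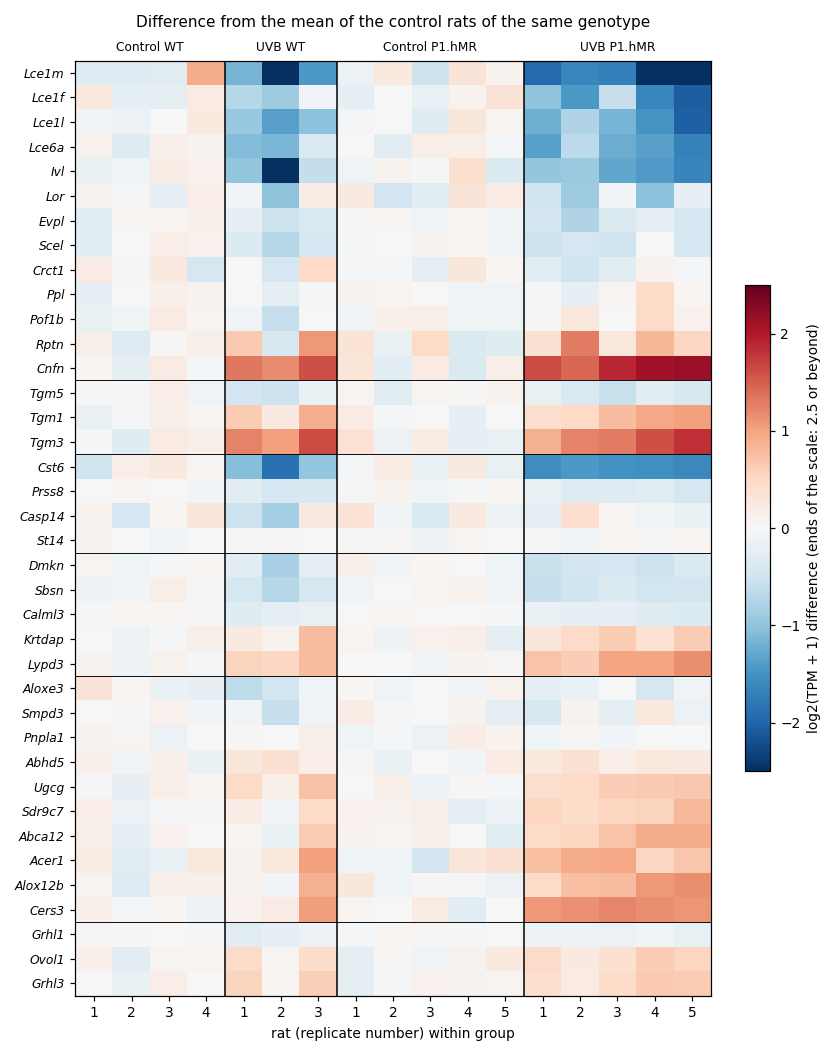
Each column is a rat, grouped as Control WT, UVB WT, Control P1.hMR and UVB P1.hMR, and each row 1 of the 38 genes in the groups of the plot of fold changes. The colour gives log2(TPM + 1) minus the mean of the control rats of the same genotype (red higher, blue lower, scale ending at 2.5 in either direction). UVB WT rat 3 is red in Ugcg, Sdr9c7, Abca12, Acer1, Alox12b and Cers3, as the 5 UVB P1.hMR rats are, and UVB WT rats 1 and 2 are mostly paler there.

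Genes that lie side by side in the genome did not all have fold changes of the same size or sign. In the RefSeq annotation of the GRCr8 assembly, 8 of the 38 genes, Lor, Ivl, Lce6a, Lce1f, Lce1l, Crct1, Lce1m and Rptn, lie in the epidermal differentiation complex, the cluster in which most genes of envelope proteins are found. Crct1 and Lce1m have no other protein-coding gene between them. Their log2 fold changes in P1.hMR differed in size, with -0.19 for Crct1 (limma adjusted p = 0.362) and -2.29 for Lce1m. That of Rptn at the same end of the cluster was 0.65, which missed the adjusted p threshold (0.051). Dmkn and Krtdap are direct neighbours too, with log2 fold changes of -0.47 and 0.48, and Sbsn precedes them with 1 gene in between. The lipoxygenases Aloxe3 and Alox12b, with 1 gene between them, had -0.18 and 0.85, and the value of Aloxe3 did not pass the threshold (limma adjusted p = 0.187).

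Promoter windows of 300 bases (250 before and 50 from the start site on, RefSeq, GRCr8, not the build of the deposited values) were matched for 27 of the 38 genes and searched on both strands for 4 motifs. The AP-1 motif TGANTCA occurred in 4 of 27 windows (14.8%, against 7.33% of 27457 windows), those of Rptn, Krtdap, Dmkn and Scel. A grainyhead motif, AACNGGTT, occurred in 2 of 27 (7.41%, against 1.97%), Rptn and Tgm5, and the TATA motif TATAAA in 4 of 27 (14.8%, against 14.3%), Rptn, Tgm3, Krtdap and Lce1m. The palindrome of AGAACA, 3 arbitrary bases and TGTTCT, to which corticosteroid receptors bind, occurred in 0 of 27 (0.00728% of all windows). Neither AP-1 nor grainyhead letters were present in the windows of the 8 genes called higher or of the 5 called lower in P1.hMR for which a window was matched. A match is a description of letters and not a binding site. The 200 bases before the start site are shown, 5′ to 3′ on the strand of the gene, for the neighbours Dmkn (chr1:95141420-95141619, + strand) and Krtdap (chr1:95165662-95165861, + strand), whose fold changes had opposite signs, and for Tgm3 (chr3:137681609-137681808, + strand) and Lce1m (chr2:181334301-181334500, - strand), the enzyme with the largest rise and the gene with the largest fall. Capitals mark the AP-1 and TATA letters, and no motif matches overlap in these 4 sequences.
Dmkn: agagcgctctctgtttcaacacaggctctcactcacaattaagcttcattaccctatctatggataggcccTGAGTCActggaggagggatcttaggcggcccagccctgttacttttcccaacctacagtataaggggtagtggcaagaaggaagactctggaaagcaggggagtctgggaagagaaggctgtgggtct
Krtdap: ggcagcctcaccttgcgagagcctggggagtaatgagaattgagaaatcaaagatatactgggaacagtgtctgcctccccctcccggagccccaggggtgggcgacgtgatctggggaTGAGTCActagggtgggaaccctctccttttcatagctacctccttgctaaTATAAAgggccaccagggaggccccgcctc
Tgm3: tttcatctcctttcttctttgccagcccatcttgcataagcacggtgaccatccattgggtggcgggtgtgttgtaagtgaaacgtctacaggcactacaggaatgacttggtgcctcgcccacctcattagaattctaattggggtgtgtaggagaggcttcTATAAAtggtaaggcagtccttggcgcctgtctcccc
Lce1m: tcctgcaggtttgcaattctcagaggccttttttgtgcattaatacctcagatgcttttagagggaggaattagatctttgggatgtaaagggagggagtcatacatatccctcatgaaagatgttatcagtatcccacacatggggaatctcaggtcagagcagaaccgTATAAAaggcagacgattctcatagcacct
Dmkn and Krtdap both carry TGAGTCA, beginning at positions -129 and -81 from the start site. TATAAA begins at position -37 in Tgm3, which rose, and at -30 in Lce1m, which fell.

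Other genes of keratinocyte differentiation and barrier formation moved in both directions as well. Of a list of 64 further names (keratins, small proline-rich proteins, desmosomal cadherins, kallikreins, lipid enzymes and regulators), 56 were analysed and 55 tested. In WT, 11 of 55 were called higher (against 3.92% of all genes) and 7 lower (against 3.98%). In P1.hMR, 16 of 55 were called higher (against 5.05%) and 8 lower (against 5.71%). The 55 genes had median log2 fold changes of 0.01 and 0.08, in the same order. The largest rises were those of the small proline-rich proteins Sprr1b and Sprr3, substrates of the transglutaminases, and of the cytokine Il36a. Sprr1b ranged from 5.51 to 15.5 TPM in the 9 controls and from 108 to 275 TPM in the 8 UVB rats, which is 3.66 on the log2 scale in WT and 4.17 in P1.hMR (limma adjusted p = 3.72e-06 and 3.77e-08), and Sprr3 had 1.49 and 2.22 (adjusted p = 0.000561 and 1.08e-06). Il36a was at most 0.63 TPM in the controls and 0.98 to 6.18 TPM after UVB. The largest falls were those of Krt77, a suprabasal keratin, from 8.98 to 47.2 TPM in the controls to 0.26 to 0.93 TPM, and of the protease Klk5 (log2 fold changes -1.30 and -1.17, adjusted p = 0.0025 and 0.00047). The third was the lipase Lipk in WT (-0.88, adjusted p = 0.00311) and Tgm2 in P1.hMR (-0.97, adjusted p = 0.00442). Tgm2 ranged from 49.7 to 165.6 TPM in Control P1.hMR and from 43.0 to 60.2 TPM in UVB P1.hMR, so these groups overlapped. In WT, Tgm2 was not called (-0.58, limma adjusted p = 0.162).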

How the data were processed

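RNA from the MGs of 17 rats was sequenced by the authors. According to the study's methods, reads were checked with FastQC, aligned to rn7 with STAR 2.5.3 and quantified with RSEM 1.2.28, whereas the submitters' processing notes list FastQC, Trimmomatic, DRAGEN and Picard, so the pipeline behind the table is not settled. The authors deposited 1 table of TPM values (2 decimals, decimal commas). TPM keeps no depth, and the listed genes summed to 804378 to 840817 TPM per rat, with 12372 to 12737 genes at 1 TPM or more.

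Groups were taken from the labels. A pseudocount of 1 was added before taking log2. A gene was kept if 3 or more rats reached 1 TPM, which left 13105 genes. Using limma 3.58.1 (R 4.3.3), group means were fitted to all 17 rats together, with a trend of variance on level. P-values are two-sided and Benjamini-Hochberg adjusted over all genes tested in a comparison. The study's own thresholds (adjusted p under 0.05, absolute log2 fold change of at least 0.5) were used, but not its count model, which the deposited unit does not allow. The fit was tested on simulated data. The study describes control rats as littermates of the transgenic rats, but it does not say which of the 17 rats shared a litter. Litter was therefore not modelled, and p-values measure the spread between these rats.

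The genes and lists, including the markers of meibocytes, epidermis, hair follicle, muscle, conjunctiva and leukocytes, were chosen with earlier results of these data known. Values of every rat are given for the genes with the largest called rise and fall of each role, the 5 highest levels, and the 3 smallest unadjusted p for the interaction and for genotype under UVB, and for the further list the 3 largest called rises and falls. Ivl, Lor and the genes given as means were added after their values were seen. Python 3.11.15 with pandas 2.3.3, numpy 2.4.6 and matplotlib 3.10.9 made tables and figures. Promoter sequences came from RefSeq (GRCr8); Lce1l was matched by gene ID.

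Alternatives were a pseudocount of 0.1, no filter, a mean of at least 5 TPM, quantile and median-of-ratios scaling, covariates for muscle and hair keratin, a replicate block, weights for samples, no variance trend, fits on 2 groups only, other fold limits, and each rat left out. Replicate numbers were not treated as pairs in the main fit.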

Additional observations from a re-analysis of the deposited data

Results flagged for a closer look

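In 6 of 114 combinations of a gene and a group of 4 or 5 rats, the highest or lowest rat stood apart from the others of its group by Dixon's criterion at the 95% level, and chance gives about 1 in 20. Lce1m was 32.6 TPM in Control WT rat 4, against 13.1 to 13.7 TPM in the other 3. Lce6a was 19.9 TPM in Control WT rat 2 (27.0 to 27.6 in the others), and Evpl was 116 TPM in Control WT rat 1 (147 to 153 in the others). Tgm5 was 34.7 TPM in Control P1.hMR rat 2 (42.8 to 44.2 in the others). Under UVB, Scel was 96.9 TPM in UVB P1.hMR rat 4 (66.2 to 71.7 in the others), and Sdr9c7 was 15.9 TPM in UVB P1.hMR rat 5 (12.3 to 13.2 in the others).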

How the results depend on the processing

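For the UVB response in WT, the number of genes called higher was 4 and became 7 with no limit on fold change, 2 with a limit of 1 on the log2 scale (all genes: 514 to 1470 and 110) and 3 to 8 when each rat was left out. The number called lower was 6 and became 14 with no limit, 4 with a limit of 1, 0 with muscle and hair keratin covariates (all genes: 522 to 1350, 109 and 130) and 4 to 11 when each rat was left out. In P1.hMR, 10 genes called higher became 3 with a limit of 1 (all genes: 662 to 156) and 10 to 12 when each rat was left out, and 6 called lower became 14 with no limit (all genes: 748 to 2696) and 6 to 7 when each rat was left out. Between genotypes, 0 genes were called without UVB in every setting, and 0 under UVB and 0 for the interaction became 0 to 1 when each rat was left out, the 1 being Cers3 without UVB WT rat 3. The other settings changed each count by at most 1.5 times.

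For 32 fold changes of single genes, 861 values under alternatives were compared with the main ones: 841 kept their direction and their side of the thresholds, 7 lost the call, 11 gained one and 2 changed sign. The sign changes were Abca12 in WT (-0.046 to 0.36 when each rat was left out, the former without UVB WT rat 3) and Lce1f in WT with the covariates (0.11). The cause of these changes was not tested. No scaling moved the median of all genes by more than 0.1.

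With the replicate block, 4 genes were called higher and 6 lower in WT, and 10 higher and 7 lower in P1.hMR, where Lor was added (all genes: 562, 457, 661 and 739), and 0 between genotypes under UVB and for the interaction. Same-numbered rats correlated above 0.1 in 4 of 22 pairs, and 6 of 17 rats correlated best with a rat of their own number. The correlation of same-numbered pairs had a median of -0.005 and a highest value of 0.24, against 0.008 and 0.18 in the other 85 pairs. These values do not settle whether the numbers pair the rats, and the main fit did not treat them as pairs. The interaction has no fit on 2 groups only. With 3 to 5 rats per group and no depth, small differences in low genes such as Smpd3 may not have been detectable.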

Other observations

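The other cell types that a dissected MG can hold gave the following values after UVB, over lists in which some genes are shared with the barrier genes. Over all genes tested, 3.92% were called higher and 3.98% lower in WT, and 5.05% higher and 5.71% lower in P1.hMR. These shares apply beside every count of called genes in this section. Of 15 meibocyte genes tested, 1 was called higher and 2 lower in WT, and 1 higher and 4 lower in P1.hMR. The gene called higher, Elovl3, had means of 935 ± 158 and 1363 ± 219 TPM in Control WT and UVB WT, and of 870 ± 92.8 and 1477 ± 127 TPM in Control P1.hMR and UVB P1.hMR (SD). Awat2, a wax synthase of meibocytes that was called lower in both genotypes, had means of 11610 ± 597 and 7380 ± 394 TPM in Control WT and UVB WT (SD, n = 4 and 3). In Control P1.hMR and UVB P1.hMR they were 10455 ± 619.8 and 7280 ± 616 TPM (SD, n = 5 and 5). Among 5 basal epidermal genes none was called in either genotype, with median log2 fold changes of 0.24 and 0.22. In WT, the fold changes were 0.48 for Krt14, 0.41 for Itgb4, 0.24 for Itga6, -0.01 for Krt5 and -0.17 for Col17a1. Krt14 was 5279 ± 529 TPM in Control WT and 7338 ± 409.8 TPM in UVB WT (SD). In Control P1.hMR and UVB P1.hMR it was 5297 ± 333.5 and 7589 ± 1466 TPM (SD). Of 4 suprabasal keratins, 1 was called lower in WT and 2 in P1.hMR. In WT, the log2 fold changes were 0.38 for Krt1 (limma adjusted p = 0.0754), 0.06 for Krt10, -0.62 for Krt2 and -4.01 for Krt77. Of these, only Krt77 was called. Krt1 was 1471 ± 148 and 1943 ± 436 TPM in the WT groups, which overlapped (SD). In the P1.hMR groups it was 1262 ± 196 and 1715 ± 211 TPM (SD).

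Of 12 skeletal muscle genes tested, 1 was called higher and 1 lower in WT, and 1 higher and 2 lower in P1.hMR. Of 12 macrophage and neutrophil genes, 3 were called higher in WT and 4 in P1.hMR, and none lower. Of 3 conjunctival genes tested, none was called in WT and 1 was lower in P1.hMR, and the goblet cell mucin Muc5b was at most 0.63 TPM in any rat, while Krt13 ranged from 2999 to 5302 TPM. Of the wound keratins, only Krt17 was analysed, and it was not called.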
